A study of Mus musculus with 15 samples.

Results

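The PGC-1 coactivators and the genes that work beside them in mitochondrial biogenesis and heat production were followed through the differentiation of 3T3-L1 cells. The set holds 10 of the 25700 genes in the count files: the coactivators Ppargc1a (PGC-1α), Ppargc1b (PGC-1β) and Pprc1 (PRC), the nuclear receptor Esrra (ERRα), the transcription factors Nrf1 and Gabpa, the mitochondrial DNA packaging factor Tfam, the brown fat regulator Prdm16, and the uncoupling proteins Ucp1 and Ucp2. They were chosen by name, after Ppargc1a had been seen at a higher level in the MIGA2-KO line than in WT at day 6, while mitochondrial genes were lower. The contrast of MIGA2-KO with WT at day 6 is therefore given below as a description, without a test. Of the 10 genes, 8 passed the filter on low counts, as did 12279 genes in all, and Prdm16 and Ucp1 did not.

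3T3-L1 is a mouse preadipocyte line that a hormone cocktail of dexamethasone, IBMX and insulin turns into fat-storing cells. The 15 RNA-seq libraries formed 5 groups of 3. Wild type cells (WT) and cells labelled MIGA2 depleted (MIGA2-KO) were taken at day 0, the start of differentiation, and at day 6, and cells labelled as having overexpressed MIGA2-GFP were taken at day 6. MIGA2, or mitoguardin 2, sits in the outer membrane of mitochondria. All groups share the parent line and the same cocktail. The labels do not say how MIGA2 was depleted, whether MIGA2-KO is a single clone, what drives MIGA2-GFP, or whether the 3 libraries of a group came from separate cultures, so p-values speak only of the spread seen between these libraries. MIGA2-GFP cells at day 0 are not analysed here.

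PGC-1 proteins do not bind DNA themselves. They dock on nuclear receptors such as ERRα and on NRF-1 and GABP, and so raise the transcription of respiratory chain genes and of Tfam, whose product packages and helps transcribe mitochondrial DNA. In brown and beige fat cells PGC-1α is induced by cold through β-adrenergic signalling, PRDM16 maintains the brown cell identity, and UCP1 lets protons leak back across the inner mitochondrial membrane so that fuel is burnt as heat.

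These promoter windows are shown because they belong to members on which the results turn: Tfam, a textbook target of GABP, and Esrra and Ucp2, whose levels moved together across the libraries. Each is the 250 bases upstream of the start site, 5′ to 3′ on the gene's strand, from RefSeq on GRCm38.p6. These start sites differ from the gene bounds given below, which come from GENCODE. Most of the Tfam window lies within the bounds given for that gene. Tfam lies at chr10:71238045-71238294 (reverse strand), Esrra at chr19:6921809-6922058 (reverse strand) and Ucp2 at chr7:100493108-100493357 (forward strand). Capitals mark an ETS/GABP motif (CCGGAAGT) in Tfam and GC boxes (GGGCGG, which reads CCGCCC on the other strand) in all of them.
Tfam: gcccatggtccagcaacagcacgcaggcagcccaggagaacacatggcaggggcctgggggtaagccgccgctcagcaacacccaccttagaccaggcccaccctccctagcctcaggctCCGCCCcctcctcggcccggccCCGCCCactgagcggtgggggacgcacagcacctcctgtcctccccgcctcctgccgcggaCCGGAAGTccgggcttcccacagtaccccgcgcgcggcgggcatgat
Esrra: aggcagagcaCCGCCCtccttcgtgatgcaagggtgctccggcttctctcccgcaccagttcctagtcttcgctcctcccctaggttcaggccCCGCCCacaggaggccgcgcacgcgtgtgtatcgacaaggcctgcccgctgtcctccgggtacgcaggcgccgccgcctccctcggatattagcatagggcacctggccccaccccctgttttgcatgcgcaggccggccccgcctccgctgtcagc
Ucp2: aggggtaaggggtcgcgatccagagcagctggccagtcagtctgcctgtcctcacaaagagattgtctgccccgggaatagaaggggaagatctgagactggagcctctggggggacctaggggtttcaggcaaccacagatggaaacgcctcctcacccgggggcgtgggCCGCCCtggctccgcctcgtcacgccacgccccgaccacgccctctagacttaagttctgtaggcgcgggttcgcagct
The CCGGAAGT motif lay 47 to 40 bases upstream of the RefSeq start of Tfam, and 2.88% of the 32851 windows of this length hold it on either strand. The GC box is common, at 32.7% of windows, and was found in 2 places in Tfam and in Esrra and in 1 place in Ucp2. Of the 10 genes 9 have a window in the table. None of these 9 held the ERR element TNAAGGTCA (1.14% of windows), the palindromic NRF-1 motif (3.74%) or the cyclic AMP response element TGACGTCA (1.55%). No motif overlaps another among those marked. A match is a description of letters and not of binding, and no match says only that the letters are not in these windows. The Ppargc1a window lies at the distal start of the gene (chr5:51567726-51567975).

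Total counts ran from 10748668 to 26003871 per library, with WT day 0 the deepest group. Replicate 1 stood apart from the other pair in WT day 0, WT day 6 and MIGA2-KO day 6, where chi-square divided by its degrees of freedom, over genes and for pairs of libraries, reached 130, 66.5 and 36.6, against at most 2.79 in MIGA2-KO day 0 and 1.89 in MIGA2-GFP. Miga2 itself stood at 925.7 CPM (counts scaled to library size with TMM factors) in the library labelled MIGA2-KO day 6 replicate 1, against 74.5 and 70.0 in the other MIGA2-KO day 6 libraries and 145.2 to 181.8 in WT day 6, so that library goes against its label. Elsewhere Miga2 does not check the labels either: MIGA2-GFP libraries held 155.4 to 165.6 CPM, within the WT range at day 6, and MIGA2-KO libraries at day 0 held 17.2 to 22.5 CPM against 13.6 to 17.8 in WT. Neither the overexpression nor a depletion at day 0 shows in these counts, and the labels do not say which part of the gene was targeted or whether the construct would be counted. At day 6 the summed level of 12 adipocyte markers was 38562 to 57614 CPM in WT, 7564 to 11290 in MIGA2-KO and 24590 to 26516 in MIGA2-GFP, with no marker at 0. That of 11 preadipocyte and fibroblast markers was 5886 to 6505, 12988 to 21475 and 6352 to 6639 CPM in the same order, and at day 0 the 12 adipocyte markers summed to at most 124.2 CPM. Macrophage markers summed to 9.90 to 102.7 CPM with Ptprc at 0 in every library, and muscle markers to 9.87 to 98.7 CPM with Myod1 at 0. In these bulk samples fewer cells of a type and less RNA per cell cannot be told apart, and the part of the adipocyte and preadipocyte markers in the results at day 6 was not tested.

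Ppargc1a was lower at day 6 than at day 0 in WT and higher in MIGA2-KO, while Ppargc1b, its closest relative in the family, rose in both lines. Levels of Ppargc1a at day 6 in WT and MIGA2-KO chose the gene, so its comparisons with day 6 libraries are descriptions, with no p. Ppargc1a (ENSMUSG00000029167, GRCm38 chr5:51454250-51567726, reverse strand) stood at 3.16, 6.17 and 8.74 CPM in WT at day 0 and at 2.17, 1.07 and 1.16 CPM at day 6. These day 6 values rest on 24, 11 and 12 counts. The groups did not overlap, and day 6 was 4.07-fold lower (-2.02 ± 0.35, log2 fold change with its SE from edgeR's quasi-likelihood fit). In MIGA2-KO cells it stood at 4.57, 3.90 and 4.70 CPM at day 0 and at 9.65, 11.0 and 9.93 CPM at day 6, so all 3 libraries at day 6 lay above all 3 at day 0. Day 6 was 2.32-fold higher (log2 fold change 1.22 ± 0.30). Leaving out the library labelled MIGA2-KO day 6 replicate 1 gave 1.26.

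Described without a test, Ppargc1a was 6.86-fold higher in MIGA2-KO than in WT at day 6 (log2 fold change 2.78), and by 2.83 on the log2 scale when leaving out the library labelled MIGA2-KO day 6 replicate 1. The changes over time in the 2 lines differed by 3.24 on the log2 scale. In MIGA2-GFP at day 6 the libraries held 2.48, 1.76 and 2.67 CPM, 2.16 lower on the log2 scale than MIGA2-KO. Against WT at day 6, whose libraries also serve as controls for MIGA2-KO, the difference was 0.62 ± 0.40 and the groups overlapped. With the 3 replicates that stand apart left out it was 1.01. From high to low the group means were 10.2 ± 0.74 CPM (SD, n = 3) in MIGA2-KO day 6, 6.02 ± 2.79 in WT day 0, 4.39 ± 0.43 in MIGA2-KO day 0, 2.30 ± 0.48 in MIGA2-GFP day 6 and 1.47 ± 0.61 in WT day 6. The neighbours WT day 0 and MIGA2-KO day 0 overlapped, as did MIGA2-GFP and WT day 6.

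Ppargc1b (ENSMUSG00000033871, chr18:61298136-61400431, reverse strand), the coactivator tied to basal mitochondrial function and fat metabolism, rose with differentiation in both lines. WT libraries held 0.57, 0.68 and 0.17 CPM at day 0 and 4.79, 4.00 and 5.34 at day 6, a 9.73-fold rise (log2 fold change 3.28 ± 0.33, adjusted p = 6.03e-07, edgeR). MIGA2-KO libraries went from 0.56, 0.76 and 0.57 CPM to 4.43, 4.45 and 4.96, a 7.20-fold rise (2.85 ± 0.35, adjusted p = 1.11e-05, edgeR). The day 0 values rest on 4 to 20 counts per library. Ppargc1b passed the filter on low counts only through day 6 libraries, so the tests of its rise were not independent of the filter. MIGA2-GFP cells held 4.27, 4.43 and 6.47 CPM, so all 3 groups at day 6 overlapped. MIGA2-GFP against WT gave 0.10 ± 0.28 (95% interval -0.50 to 0.69, adjusted p = 0.808, edgeR), and MIGA2-KO against WT, as a description, -0.03.

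Pprc1 (ENSMUSG00000055491, chr19:46044886-46072915, forward strand), the growth-induced member of the family, fell in both lines. It went from 41.9, 53.6 and 48.8 CPM to 27.3, 28.9 and 24.2 in WT (log2 fold change -0.84 ± 0.11, adjusted p = 1.03e-05, edgeR), with no overlap. In MIGA2-KO it went from 49.8, 49.0 and 45.3 CPM to 39.99, 39.1 and 35.1 (-0.34 ± 0.11, adjusted p = 0.0236, edgeR), again with no overlap. The call in MIGA2-KO was lost without MIGA2-KO day 0 replicate 1 (adjusted p = 0.0739), without MIGA2-KO day 0 replicate 2 (0.0701) and without MIGA2-KO day 6 replicate 3 (0.0988). Offsets for GC content and exon length also ended it (-0.21, adjusted p = 0.116, edgeR). At day 6 the MIGA2-KO libraries lay above all WT and all MIGA2-GFP libraries (26.2, 27.8 and 27.3 CPM), by 0.51 on the log2 scale over WT.

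**Figure D1:**
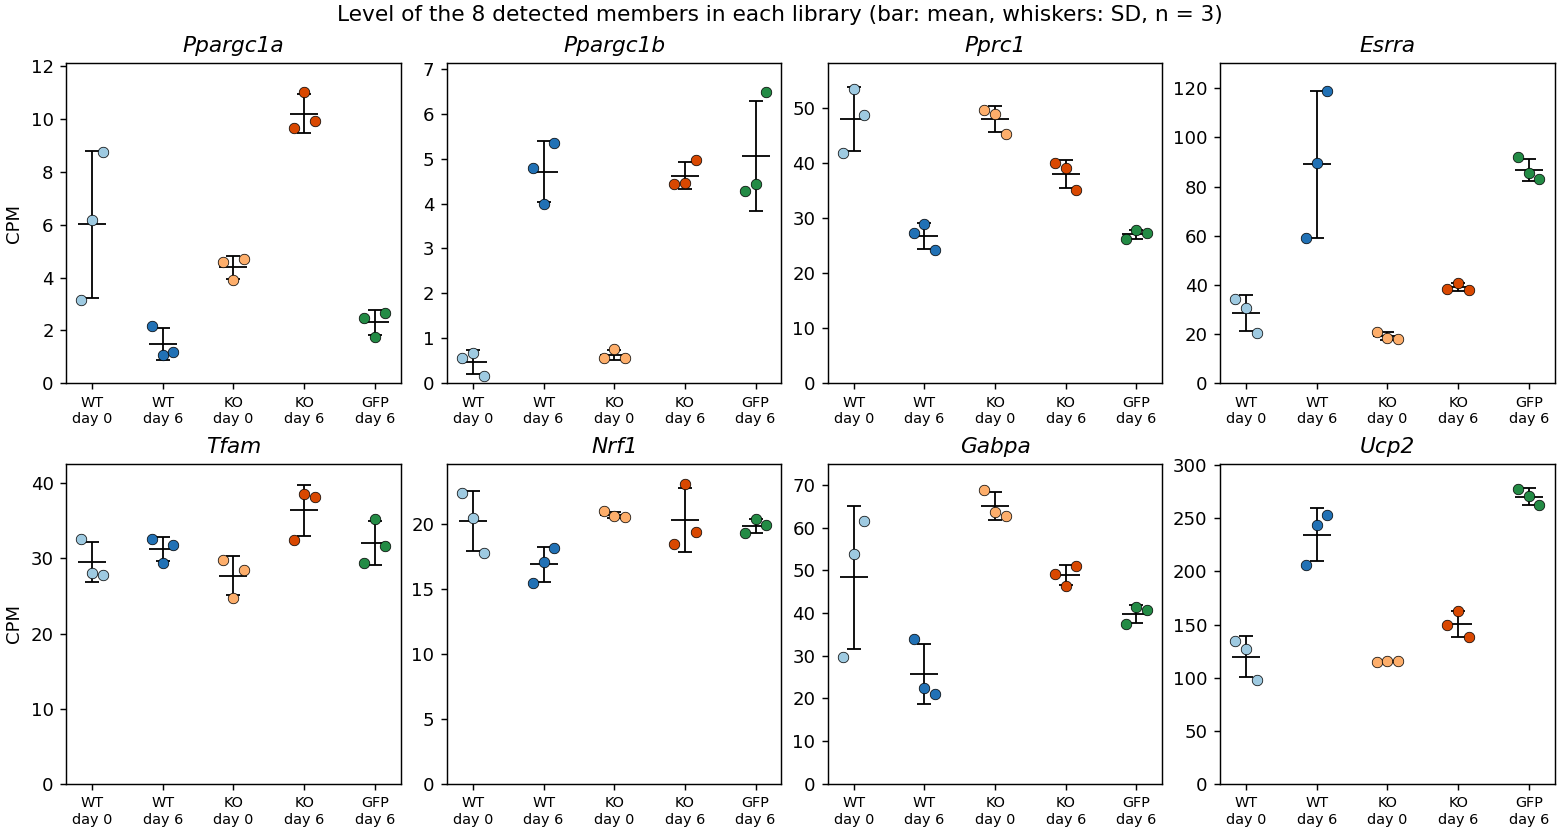
Level (CPM, linear axes from 0) of the 8 members that passed the filter in each of the 15 libraries, by group. Points are libraries, bars the mean and whiskers the SD of 3 libraries. Ppargc1a is highest in the 3 MIGA2-KO day 6 libraries (9.65 to 11.0 CPM) and lowest in WT day 6 (1.07 to 2.17 CPM), while Ppargc1b lies at 4.00 to 6.47 CPM in all day 6 libraries.

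Per kilobase of exon, the order of Ppargc1a and Ppargc1b within the family reversed from day 0 to day 6 in WT, but not in MIGA2-KO. Pprc1 took the largest share of the summed CPM per kb of the 3 coactivators in every library, from 67.0% to 91.5%. Ppargc1a exceeded Ppargc1b at day 0 in all 6 libraries, by 3.38, 5.51 and 31.9 times in WT and by 4.93, 3.09 and 5.02 times in MIGA2-KO. The value of 31.9 comes from WT day 0 replicate 3, where Ppargc1b had 4 counts. At day 6 the ratio of Ppargc1a to Ppargc1b was 0.27, 0.16 and 0.13 in WT and 0.35, 0.24 and 0.25 in MIGA2-GFP. In MIGA2-KO it was 1.32, 1.502 and 1.21, between the day 0 and the other day 6 libraries. The summed family level per kb was 5.67 ± 0.27 in WT day 6 and 5.93 ± 0.40 in MIGA2-GFP, against 8.76 ± 0.37 in MIGA2-KO day 6, 8.69 ± 1.23 in WT day 0 and 8.47 ± 0.36 in MIGA2-KO day 0.

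**Figure D2:**
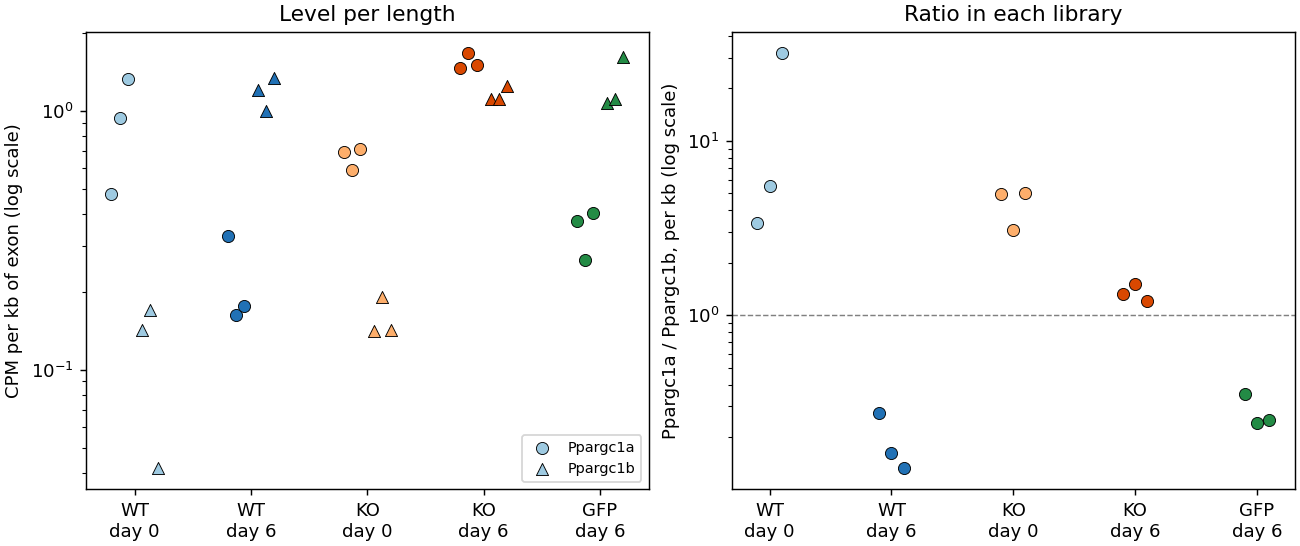
Left, CPM per kb of exon (log axis) of Ppargc1a (circles) and Ppargc1b (triangles) in each library; right, their ratio in each library (log axis, dashed line at 1). The ratio lies above 1 in all day 0 and MIGA2-KO day 6 libraries and between 0.13 and 0.35 in WT and MIGA2-GFP at day 6.

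Esrra (ENSMUSG00000024955, chr19:6910977-6921813, reverse strand), the receptor through which PGC-1 coactivators reach oxidative metabolism genes, rose in both lines. In WT it went from 34.3, 30.6 and 20.3 CPM to 58.9, 89.5 and 118.7 (3.13-fold, log2 fold change 1.65 ± 0.22, adjusted p = 9.06e-06, edgeR). In MIGA2-KO it went from 20.9, 18.5 and 17.9 CPM to 38.4, 40.9 and 38.1 (2.05-fold, 1.03 ± 0.22, adjusted p = 0.00149, edgeR). The groups did not overlap in either line. MIGA2-GFP libraries held 91.9, 85.7 and 83.2 CPM, within the wide range of WT at day 6 (-0.03 ± 0.21, 95% interval -0.48 to 0.41, adjusted p = 0.913, edgeR). As a description, MIGA2-KO at day 6 was 2.27-fold below WT, in the opposite direction to Ppargc1a. At day 0 MIGA2-KO against WT gave -0.57 ± 0.22 (adjusted p = 0.0565, edgeR), which missed the threshold.

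Ucp2 (ENSMUSG00000033685, chr7:100493337-100502020, forward strand), a mitochondrial carrier related to UCP1 but not a brown fat marker, followed Esrra. It went from 134.6, 126.6 and 97.8 CPM to 206.2, 244.1 and 253.5 in WT (1.96-fold, log2 fold change 0.97 ± 0.12, adjusted p = 4.59e-06, edgeR), with no overlap. In MIGA2-KO it went from 115.1, 115.7 and 115.5 CPM to 149.4, 163.1 and 138.7 (1.30-fold, 0.38 ± 0.12, adjusted p = 0.0169, edgeR), with all day 6 libraries above day 0. That call was lost without MIGA2-KO day 0 replicate 1 (adjusted p = 0.054) and without MIGA2-KO day 6 replicate 2 (0.0736). MIGA2-GFP libraries, at 277.9, 271.0 and 262.2 CPM, lay above all WT libraries at day 6, but the difference of 0.20 ± 0.12 did not pass (95% interval -0.05 to 0.46, adjusted p = 0.188, edgeR). Over the 15 libraries log2 CPM of Ucp2 correlated with that of Esrra at r = 0.97, and with that of Pprc1 at r = -0.94, as a description over libraries that share days and lines. Reads could be shared with a gene on the other strand over 305 exon bases of Ucp2 (Dnajb13) and 73 of Esrra (Trmt112), and how counting treated the strand was not given in the sources used here.

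Of the DNA-binding partners, Nrf1 passed in no tested comparison and Gabpa in 2 of 4. Nrf1 (ENSMUSG00000058440, chr6:30047988-30153458, forward strand), encoding NRF-1, which drives respiratory chain and Tfam promoters, lay between 15.5 and 23.1 CPM in all 15 libraries. WT day 6 against day 0 stood at -0.26 ± 0.12 (adjusted p = 0.0732, edgeR) and MIGA2-KO day 6 against day 0 stood at -0.03 ± 0.12 (95% interval -0.29 to 0.23, adjusted p = 0.881, edgeR). The sign in both turned with offsets for exon length (0.10 and 0.13).

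Gabpa (ENSMUSG00000008976, chr16:84834925-84863779, forward strand), the DNA-binding subunit of GABP, went from 29.6, 53.9 and 61.7 CPM at day 0 to 33.9, 22.4 and 20.97 CPM at day 6 in WT. The groups overlapped through replicate 1 of each, and the fall passed (log2 fold change -0.91 ± 0.22, adjusted p = 0.0023, edgeR). In MIGA2-KO it went from 68.9, 63.6 and 62.9 CPM to 49.1, 46.4 and 51.1, with no overlap, yet -0.41 ± 0.22 did not pass (adjusted p = 0.139, edgeR). With only these groups in the fit, so that the spread of the WT libraries did not enter, it passed (adjusted p = 0.00112, edgeR). It also passed with offsets for GC content and exon length (-0.41, adjusted p = 0.0228, edgeR). MIGA2-GFP libraries, at 37.4, 41.4 and 40.7 CPM, were above all WT libraries at day 6 (0.63 ± 0.22, adjusted p = 0.0419, edgeR). This call was lost in 12 of the 15 fits that left out 1 library, including that with the library labelled MIGA2-KO day 6 replicate 1 left out (adjusted p = 0.052), and was kept without the 3 libraries that stand apart (0.87, adjusted p = 3.22e-07). Gabpa and Ppargc1a are among the tested genes of low GC content, at the 10.4th and 11.4th percentile, and the deviations of WT libraries from their group means correlated across genes with GC content at -0.58 to 0.43, against -0.13 to 0.12 in the other groups. Its part in the result was not tested. Gabpa shares 397 exon bases with Atp5j on the other strand.

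Tfam (ENSMUSG00000003923, chr10:71225464-71238280, reverse strand), whose window above holds the GABP motif, changed little. It went from 32.6, 28.1 and 27.8 CPM to 32.6, 29.4 and 31.7 in WT (log2 fold change 0.08 ± 0.12, 95% interval -0.17 to 0.33, adjusted p = 0.55, edgeR). In MIGA2-KO it rose from 29.8, 24.8 and 28.5 CPM to 32.5, 38.6 and 38.2 (1.32-fold, 0.40 ± 0.12, adjusted p = 0.013, edgeR). That call was lost without MIGA2-KO day 0 replicate 2 (adjusted p = 0.0713), MIGA2-KO day 6 replicate 2 (0.0511) or MIGA2-KO day 6 replicate 3 (0.0501). MIGA2-GFP libraries held 29.4, 35.2 and 31.6 CPM and overlapped WT at day 6 (0.04 ± 0.12, 95% interval -0.21 to 0.29, adjusted p = 0.824, edgeR).

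Prdm16 (ENSMUSG00000039410, chr4:154316125-154636873, reverse strand) had 3 counts in all, 2 in WT day 0 replicate 1 and 1 in MIGA2-KO day 6 replicate 3. Ucp1 (ENSMUSG00000031710, chr8:83290352-83298452, forward strand) had 0 counts in all 15 libraries. With 210327989 counts in all, a count of 0 allows a level of up to 0.0143 CPM over the libraries together (3 counts, for counting error only). Neither gene was detectable as changed at this depth.

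Counted together, 6 of the 8 members passed in WT day 6 against day 0 (3 up, 3 down), where 64.8% of all tested genes were called, 31.7% up and 33.1% down. In MIGA2-KO 6 of 8 passed (5 up, 1 down), where 44.3% of all genes were called, 23.3% up and 21% down. These counts include Ppargc1a, for which they are a description, and 5 of the other 7 passed in each line. Among those 5 is Ppargc1b, which passed the filter on low counts only through day 6 libraries. At day 0 none of the 8 passed between MIGA2-KO and WT in edgeR's test, against 33.9% of all genes (16.1% higher, 17.7% lower). Esrra was the 1 member with an unadjusted p under 0.05 there. DESeq2 called 1 of the 8 at day 0, beside 36.7% of all genes, and limma-voom with sample weights 3, beside 57.4%. Ppargc1a at day 0 gave -0.46 ± 0.30 (95% interval -1.10 to 0.18, adjusted p = 0.253, edgeR), and -0.76 without WT day 0 replicate 1, which passed (adjusted p = 0.0216). Without WT day 0 replicate 3, Esrra (-0.76, adjusted p = 0.0119) and Gabpa (0.64, adjusted p = 0.0343) passed at day 0. Between MIGA2-GFP and WT at day 6, 1 of the 8 passed (Gabpa), against 35.3% of all genes (16.5% higher, 18.9% lower). The ranges of the groups compared did not overlap for 5 of 8 members in WT over time (57.5% of all genes), 7 of 8 in MIGA2-KO over time (65.7%), 1 of 8 between the lines at day 0 (51%) and 3 of 8 between MIGA2-GFP and WT (50.3%). They did not overlap for 6 of 8 members in MIGA2-KO against WT at day 6, beside 61.9% of all genes, which is given as a description since that contrast chose the set.

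**Figure D3:**
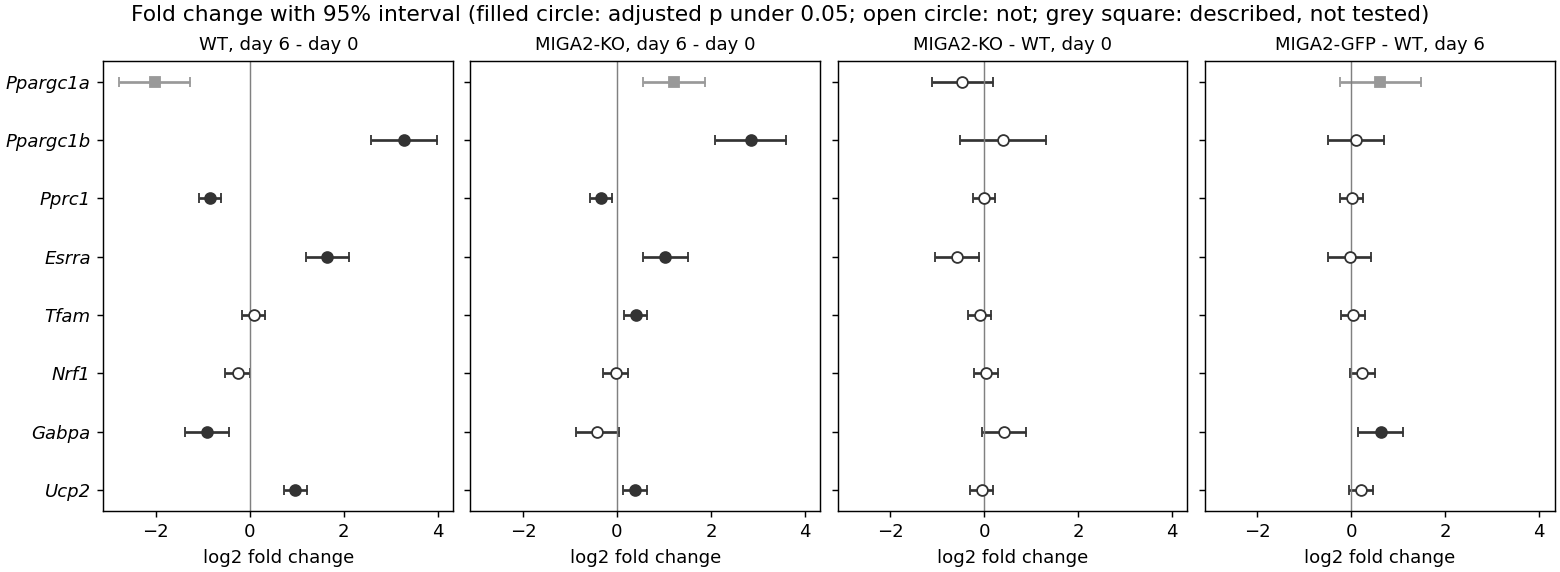
log2 fold change of the 8 members in the 4 tested comparisons, with 95% intervals from edgeR's quasi-likelihood fit. Filled circles have an adjusted p under 0.05, open circles do not, and grey squares mark Ppargc1a where day 6 values chose it and no test is given. Ppargc1a lies at -2.02 in WT and at 1.22 in MIGA2-KO over the 6 days, and at day 0 all 8 circles are open.

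Most genes that PGC-1 coactivators are known to act on rose in both lines. The rule that chose the set names mitochondrial genes at day 6 in MIGA2-KO and WT, so the counts over time rest in part on libraries it used, and the difference between the lines was not tested. Of 36 textbook targets of PGC-1 with ERRα or NRF-1, all 36 rose in WT (median log2 fold change 1.80, against -0.04 over all genes, of which 31.7% rose). In MIGA2-KO 32 rose, none fell and the median was 0.87, against 0.02 over all genes, of which 23.3% rose. With the library labelled MIGA2-KO day 6 replicate 1 left out, 29 rose in MIGA2-KO, beside 39.2% of all genes called either way. Acadm, which starts the oxidation of medium-chain fatty acids, rose most in both, from 41.0 to 766.4 CPM in WT (4.23 ± 0.09, adjusted p = 9.82e-14, edgeR) and from 43.9 to 245.5 CPM in MIGA2-KO (2.48 ± 0.09, adjusted p = 2.88e-11, edgeR).

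Cox4i1, a subunit of cytochrome oxidase, went from 455.4 to 2160.2 CPM in WT and from 261.1 to 566.9 CPM in MIGA2-KO, and the ATP synthase subunits Atp5b and Atp5a1 also rose in both lines. As a description, 35 of the 36 targets were lower in MIGA2-KO than in WT at day 6 (median -1.08, against -0.01 over all genes), in the same libraries in which Ppargc1a was higher; the rule that chose the set already names this contrast. In MIGA2-GFP 15 of the 36 were lower than in WT and none higher (median -0.41, against 0.00 over all genes, of which 18.9% were called lower). Atp5o, which joins the 2 sectors of ATP synthase, was furthest below WT in MIGA2-GFP (-0.82 ± 0.22, adjusted p = 0.01, edgeR). Without the 3 libraries that stand apart 26 were lower and 3 higher, beside 61.5% of all genes called either way. At day 0, 4 were higher in MIGA2-KO than in WT and 8 lower, or 8 and 12 without those 3 libraries. Of all genes 16.1% were higher and 17.7% lower at day 0, or 49.6% called either way without those libraries. Citrate synthase (Cs) was highest above WT (0.33 ± 0.08, adjusted p = 0.00833, edgeR) and Cpt1b, the muscle-type importer of long-chain fatty acids, furthest below (-1.82 ± 0.47, adjusted p = 0.00941, edgeR).

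**Figure D4:**
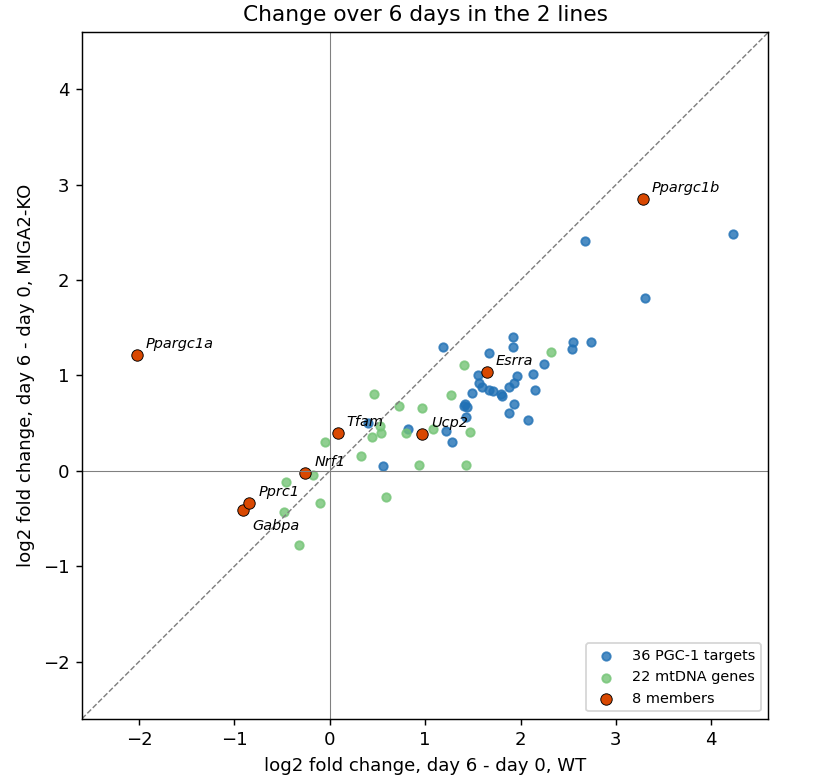
log2 fold change from day 0 to day 6 in WT (horizontal) and in MIGA2-KO (vertical) for the 8 members, the 36 textbook targets and 22 genes of mitochondrial DNA maintenance and transcription; the dashed line marks equal change. Ppargc1a is the only one of the 8 members in the upper left field (-2.02 and 1.22), and all 36 targets lie to the right of 0.

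Among 22 genes that replicate, transcribe or package mitochondrial DNA, the processes in which Tfam takes part, 15 rose and 2 fell in WT, and 10 rose and 2 fell in MIGA2-KO (medians 0.56 and 0.38, against -0.04 and 0.02 over all genes). Of all genes 31.7% rose and 33.1% fell in WT, and 23.3% rose and 21% fell in MIGA2-KO. With the library labelled MIGA2-KO day 6 replicate 1 left out, 7 rose and 4 fell in MIGA2-KO, beside 39.2% of all genes called either way. Polrmt, the mitochondrial RNA polymerase, went from 16.02 to 43.3 CPM in WT (1.43 ± 0.18, adjusted p = 6.98e-06, edgeR), and in MIGA2-KO it held 21.99 CPM at day 0 and 22.9 at day 6 (0.06 ± 0.18, adjusted p = 0.822, edgeR). The transcription factor genes Tfb1m and Tfb2m rose in both lines, Tfb1m from 4.97 to 12.001 CPM in WT and from 3.22 to 5.62 in MIGA2-KO, and Tfb2m from 7.91 to 11.4 and from 7.80 to 10.8. Atad3a, of the inner membrane at mitochondrial nucleoids, rose most in both lines (2.32 ± 0.14 in WT and 1.25 ± 0.14 in MIGA2-KO, adjusted p = 2.89e-09 and 5.4e-06, edgeR). Primpol, a primase-polymerase, fell most in WT (-0.48 ± 0.18, adjusted p = 0.0314, edgeR), and the mitochondrial topoisomerase Top1mt fell most in MIGA2-KO (-0.78 ± 0.21, adjusted p = 0.00825, edgeR).

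At day 0, 7 of the 22 were lower in MIGA2-KO and 1 higher (16.1% of all genes higher and 17.7% lower; medians over the list -0.25 and over all genes -0.03), or 6 lower and 2 higher with the library labelled MIGA2-KO day 6 replicate 1 left out and 6 and 4 without the 3 libraries that stand apart. In those settings 36% and 49.6% of all genes were called either way. The single-strand binding protein Ssbp1 lay furthest below WT (-0.63 ± 0.13, adjusted p = 0.00243, edgeR) and Lrpprc, which stabilises mitochondrial mRNAs, was the gene above (0.24 ± 0.09, adjusted p = 0.0472, edgeR). In MIGA2-GFP 2 were higher than in WT, with the protease Lonp1 highest (0.67 ± 0.15, adjusted p = 0.00412, edgeR), and 7 lower, with Slirp, the partner of LRPPRC, lowest (-0.85 ± 0.22, adjusted p = 0.00826, edgeR). Of all genes 16.5% were higher there and 18.9% lower. The 13 mRNAs made from mitochondrial DNA, 8 of which were tested, rose in WT in 8 of 8 cases (median 2.09, with 31.7% of all genes rising), and 5 of 8 rose in MIGA2-KO (median 0.57, with 23.3% of all genes rising). With the library labelled MIGA2-KO day 6 replicate 1 left out 3 of 8 rose, beside 39.2% of all genes called either way. Of the 8, mt-Atp6 had 2 counts over WT day 0 and 20 over WT day 6. It passed the filter on low counts only through day 6 libraries, so its rise was not independent of the filter. At day 0, 6 of the 8 were higher in MIGA2-KO than in WT, beside 16.1% of all genes, mt-Nd2 most (1.70 ± 0.18, adjusted p = 1.67e-05, edgeR). In MIGA2-GFP 1 of the 8 was lower than in WT, beside 18.9% of all genes, mt-Nd1 (-0.57 ± 0.13, adjusted p = 0.0035, edgeR).

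Although Ucp1 and Prdm16 were at or near 0 counts, other genes of the brown and beige programme were present at day 6. Cidea, Elovl3, Cox8b, Adrb3 and Cox7a1 passed the filter on low counts only through day 6 libraries. Tests of their rise were therefore not independent of the filter. Cidea, a lipid droplet protein of brown fat, held 41.7, 55.5 and 58.5 CPM in WT at day 6 against at most 0.14 CPM in any WT library at day 0 (adjusted p = 4.36e-05, edgeR). MIGA2-GFP libraries held 75.5, 73.4 and 76.9 CPM of Cidea. In MIGA2-KO at day 6 Cidea held 13.3, 0 and 0.09 CPM, so nearly all of it came from the library labelled MIGA2-KO day 6 replicate 1, the library with 925.7 CPM of Miga2. With all libraries the rise in MIGA2-KO passed (adjusted p = 0.0168, edgeR) and without that library it did not (adjusted p = 0.313).

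Elovl3, a fatty acid elongase of brown fat, showed the same distribution, with 28.2, 28.1 and 25.8 CPM in WT, 21.9, 20.6 and 21.8 in MIGA2-GFP and 1.30, 0 and 0 in MIGA2-KO at day 6. Its rise in MIGA2-KO (adjusted p = 0.0426, edgeR) likewise ended with the library labelled MIGA2-KO day 6 replicate 1 left out, as Elovl3 then had 0 counts in that line. Cox8b, a cytochrome oxidase isoform, held 44.9, 87.4 and 112.8 CPM in WT, 76.4, 76.2 and 75.1 in MIGA2-GFP and 30.3, 4.04 and 4.62 in MIGA2-KO at day 6. Its rise from 0 counts in MIGA2-KO was at least 164-fold against 3 counts over the group, or at least 54.6-fold with the library labelled MIGA2-KO day 6 replicate 1 left out, and it passed with and without that library (adjusted p = 0.000329 and 9.46e-05, edgeR).

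Adrb3, the β3-adrenergic receptor that receives the cold signal, had 0 counts at day 0 in both lines and reached 4.25, 7.12 and 9.42 CPM in WT, 7.94, 6.72 and 6.09 in MIGA2-GFP and 3.30, 0.82 and 0.70 in MIGA2-KO. Its rise was at least 173-fold in WT and at least 20.3-fold in MIGA2-KO, or at least 9.6-fold with the library labelled MIGA2-KO day 6 replicate 1 left out. Cox7a1, another cytochrome oxidase isoform of muscle and brown fat, held 5.70, 11.5 and 9.32 CPM in WT, 16.7, 17.2 and 15.3 in MIGA2-GFP and 4.52, 0.16 and 0.52 in MIGA2-KO. The rise of Cox7a1 in MIGA2-KO passed with all libraries (adjusted p = 0.0119, edgeR) but not with the library labelled MIGA2-KO day 6 replicate 1 left out (adjusted p = 0.162). Dio2, which activates thyroid hormone in brown fat, was at most 0.44 CPM in every library and was not tested.

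**Figure D5:**
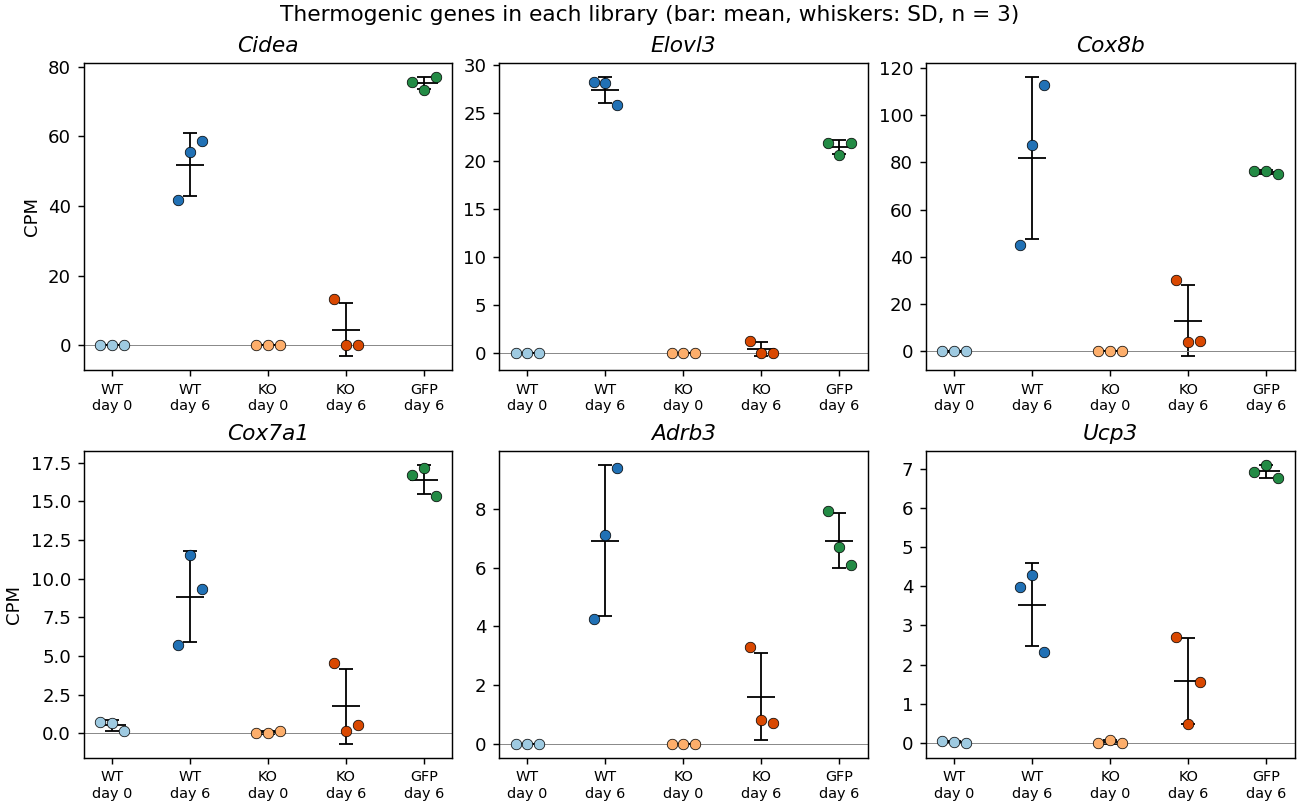
CPM (linear axes) of Cidea, Elovl3, Cox8b, Cox7a1, Adrb3 and Ucp3 in each library, with mean and SD of 3. In MIGA2-KO at day 6 the highest point in each panel is the library labelled MIGA2-KO day 6 replicate 1, with 13.3 CPM of Cidea against 0 and 0.09 in the other libraries.

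Over the whole brown and beige list, 32 of 49 genes in the files were tested. Some of the 32, among them Cidea, Elovl3, Cox8b, Adrb3 and Cox7a1, passed the filter only through day 6 libraries. The counts and medians over time were therefore not independent of the filter. In WT 16 rose and 4 fell (median 0.85, against -0.04 over all genes, of which 31.7% rose and 33.1% fell). In MIGA2-KO, where 23.3% of all genes rose and 21% fell around a median of 0.02, 15 rose and 4 fell (median 0.97), or 12 and 4 with a median of 0.31 with the library labelled MIGA2-KO day 6 replicate 1 left out. With that library left out 39.2% of all genes were called either way in MIGA2-KO. These medians did not move when the genes at 0 counts on day 0 (2 in WT, 6 in MIGA2-KO) were set at their bounds. Not all members of the list are heat-producing genes: S100b, which encodes a calcium-binding protein, rose in both lines (3.39 ± 0.18 and 6.88 ± 0.28, adjusted p = 6.58e-10 and 1.05e-10, edgeR), and the creatine transporter gene Slc6a8 fell in both (-1.73 ± 0.10 and -0.49 ± 0.10, adjusted p = 2.03e-09 and 0.00106, edgeR). Eva1a fell most in WT (-3.50 ± 0.45, adjusted p = 8.4e-06, edgeR) and the transcription factor gene Ebf3 most in MIGA2-KO (-1.64 ± 0.13, adjusted p = 1.3e-07, edgeR). At day 0, 4 were higher and 2 lower in MIGA2-KO than in WT (16.1% and 17.7% of all genes), with S100b among the lower (-3.35 ± 0.34, adjusted p = 1.3e-05, edgeR). These became 4 and 4 with the library labelled MIGA2-KO day 6 replicate 1 left out, and 5 and 7 without the 3 libraries that stand apart. In those settings 36% and 49.6% of all genes were called either way.

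Between MIGA2-GFP and WT at day 6, 4 of the 32 were higher and 2 lower (16.5% and 18.9% of all genes), or 10 and 3 with the library labelled MIGA2-KO day 6 replicate 1 left out and 17 and 8 without the 3 libraries that stand apart. In those settings 37% and 61.5% of all genes were called either way. Fgf21, a hormone gene, was highest above WT, at 1.17 against 0.03 CPM (adjusted p = 0.0187, edgeR), or 40 counts over MIGA2-GFP against 1 over WT. It passed the filter on low counts only with the MIGA2-GFP libraries, so its test was not independent of the filter. S100b was furthest below WT (-1.61 ± 0.17, adjusted p = 1.9e-05, edgeR). Cidea (0.54 ± 0.73, adjusted p = 0.589, edgeR) and Cox7a1 (0.90 ± 0.54, adjusted p = 0.213, edgeR) did not pass there, although all MIGA2-GFP libraries lay above all WT libraries for both. With the library labelled MIGA2-KO day 6 replicate 1 left out of the fit, and so of the shared spread, Cidea passed (0.52, adjusted p = 0.0468) and Cox7a1 did not (0.88, adjusted p = 0.0519). At day 6, as a description, 18 of the 32 were lower in MIGA2-KO than in WT and 14 higher.

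Ucp2 was the most abundant uncoupling protein mRNA. Ucp3, the form of muscle and brown fat, held 3.98, 4.29 and 2.33 CPM in WT, 2.70, 0.49 and 1.57 in MIGA2-KO and 6.92, 7.10 and 6.76 in MIGA2-GFP at day 6, from 2 counts over WT and 1 over MIGA2-KO at day 0. Its rise was 133-fold in WT (95% counting interval 35.9 to 1110) and 59.3-fold in MIGA2-KO (10.2 to 2380), or 38.5-fold (6.27 to 1580) with the library labelled MIGA2-KO day 6 replicate 1 left out. Of the 6 tested related carriers, 2 rose and 3 fell in WT, where 31.7% of all genes rose and 33.1% fell, and 2 rose and 1 fell in MIGA2-KO (23.3% and 21% of all genes). Ucp3, among those that rose, passed the filter only through day 6 libraries. Slc25a5, the adenine nucleotide translocase ANT2, rose from 238.2 to 950.5 CPM in WT and from 192.1 to 412.5 in MIGA2-KO (adjusted p = 4.76e-10 and 5.65e-07, edgeR), and was lower in MIGA2-GFP than in WT (-0.999 ± 0.10, adjusted p = 1.38e-05, edgeR). Slc25a4, the translocase ANT1 of heart and muscle, was lower in MIGA2-KO than in WT at day 0 (-1.03 ± 0.15, adjusted p = 0.000191, edgeR).

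Of 46 factors that act with or on PGC-1 coactivators, 41 were tested. In WT 15 rose and 12 fell (median -0.06), shares near the 31.7% and 33.1% of all genes. In MIGA2-KO 17 rose and 2 fell (median 0.17), beside 23.3% and 21% of all genes. Without the 3 libraries that stand apart 15 rose and 23 fell in WT, and 23 rose and 6 fell in MIGA2-KO. Of all genes 80.1% were called either way in WT in that setting, and 58.9% in MIGA2-KO. Nr1h3 (LXRα) rose most in WT (4.96 ± 0.20, adjusted p = 2.97e-11, edgeR) and Fnip1, a partner of folliculin, fell most (-1.39 ± 0.32, adjusted p = 0.00166, edgeR). Nrip1 (RIP140), a corepressor that opposes PGC-1α in fat, rose in both lines and rose most of the list in MIGA2-KO. Its levels went from 6.32, 8.74 and 10.4 CPM to 104.1, 73.98 and 75.2 in WT (3.31 ± 0.18, adjusted p = 5.67e-10, edgeR) and from 19.4, 16.6 and 17.0 CPM to 100.8, 114.2 and 113.3 in MIGA2-KO (2.63 ± 0.17, adjusted p = 1.33e-08, edgeR).

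Rxra, the partner of many nuclear receptors, and Lpin1, a phosphatidate phosphatase that also coactivates with PGC-1α, rose in both lines. Prkaca, the catalytic subunit of protein kinase A, rose in WT from 151.2 to 304.6 CPM and in MIGA2-KO from 83.7 to 103.5, and was lower in MIGA2-KO than in WT already at day 0 (-0.85 ± 0.11, adjusted p = 7.45e-05, edgeR). At day 0, 13 of the 41 were higher in MIGA2-KO than in WT and 4 lower, beside 16.1% and 17.7% of all genes, and Nr1h3 was highest above WT (1.28 ± 0.19, adjusted p = 0.000223, edgeR). In MIGA2-GFP at day 6, 7 were higher than in WT and 2 lower, or 24 and 8 without the 3 libraries that stand apart. Of all genes 16.5% were higher and 18.9% lower, or 61.5% called either way without those libraries. Prkaa2, a catalytic subunit of AMP-activated kinase, was highest above WT (1.81 ± 0.49, adjusted p = 0.0116, edgeR) and Pparg, the master regulator of fat cell differentiation, furthest below (-0.64 ± 0.08, adjusted p = 7.82e-05, edgeR). The other nuclear receptor partners Esrrb, Esrrg and Ppara stayed at or below 0.87 CPM in every library and were not tested.

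By pattern over the 15 libraries, the protein-coding genes most like Ppargc1a in log2 CPM were Ctns, Gna13, Antxr2, Maf and Appl2, with Pearson r from 0.95 to 0.97. Those most like Ppargc1b were Mknk2, Lipe, Fam107a, Itga7 and Fgfrl1, with r from 0.97 to 0.98. Ppargc1a and Ppargc1b themselves correlated at -0.32. These values are a description over 12132 genes in libraries that share days, lines and depth.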

How the data were processed

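RNA from 15 libraries of 3T3-L1 cells (5 groups of 3) was made into stranded TruSeq libraries, per the labels' protocols. Reads were trimmed with Trimmomatic, aligned to GRCm38.p5 with STAR 2.5.4b and counted with featureCounts, per the submitters' processing notes. The deposited values are raw counts per Ensembl gene, 25700 genes per library, of which 25664 were matched to symbols and positions in GENCODE M21. The annotation release, the strand setting and how multi-mapping reads were treated were not given in the sources used here.

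Counts were fitted in edgeR 4.0.16 (R 4.3.3) with 1 term per group over all 15 libraries, after filterByExpr (minimum count 10, minimum total 15) and TMM scaling. Quasi-likelihood tests were two-sided, with Benjamini-Hochberg adjustment over 12279 genes and a threshold of 0.05. The SE was taken as |log2 fold change| over the root of F. Tests covered the change over time within WT, the change over time within MIGA2-KO, the lines against each other at day 0, and MIGA2-GFP against WT at day 6. MIGA2-KO against WT at day 6, MIGA2-GFP against MIGA2-KO the difference between the changes over time, and Ppargc1a wherever day 6 libraries enter, are described only. Counts were also simulated with 1 spread for all genes, which leaves out the uneven spread between groups. There the fit recovered 22% to 29% of 1.5-fold changes and 82% to 86% of 2-fold changes. Of the genes called, 3.6% to 5% had not been changed. The change over time in MIGA2-KO was not simulated.

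The members and the gene lists were chosen with earlier results of these data known. Named genes are all 10 members; of each pathway list the 3 of highest mean CPM and the called gene with the largest rise and fall in each tested comparison; 14 thermogenic and mitochondrial genes always named; the 5 genes most like Ppargc1a and Ppargc1b; and Miga2. The text gives only some of the genes that this rule names, and 1 gene is not reported here. Intervals and floors cover counting error only. Alternatives were DESeq2 1.42.0, RLE scaling, no filter, only the groups compared, a replicate block, limma-voom (limma 3.58.1) with sample weights, exon length offsets and leaving out libraries; offsets for GC content with length, and list counts and fold bounds without libraries, were added after seeing the data. Replicate numbers did not pair the samples (correlation of deviations -0.72 to 0.12 for the same number).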

Additional observations from a re-analysis of the deposited data

Results flagged for a closer look

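Ppargc1a was picked out because its change over time went opposite ways in the 2 lines: all 3 WT libraries at day 6 lay below all 3 at day 0 (log2 fold change -2.02 ± 0.35), and all 3 MIGA2-KO libraries at day 6 lay above all 3 at day 0 (1.22 ± 0.30). The difference of 3.24 on the log2 scale was not tested, since the gene was chosen for its level in MIGA2-KO at day 6. It lay between 2.89 and 3.64 when any 1 library was left out.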

How the results depend on the processing

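The values and counts in this section include Ppargc1a, whose comparisons with day 6 libraries are descriptions. Of 32 values (8 members in 4 tested comparisons), 32 kept their direction and side of the threshold without the filter, 31 with the replicate block, 31 with RLE scaling, 30 with DESeq2 and 26 with exon length offsets. So did 26 with limma-voom, 26 without the 3 libraries that stand apart, and 24 with GC and length offsets, with or without the block. With only the groups compared 30 of 31 did; for the value left the gene did not pass the filter. The number of members passing at day 0 (0) became 1 with DESeq2, 2 without the 3 libraries that stand apart, 3 with limma-voom, 1 with exon length offsets and 1 with GC and length offsets. Of all genes 36.7%, 49.6%, 57.4%, 35% and 38.9% passed there, in the same order. For MIGA2-GFP against WT (1) the number became 2 without the 3 libraries that stand apart, 2 with limma-voom, 0 with the replicate block and 0 with exon length offsets and the block. Of all genes 61.5%, 61.1%, 30.4% and 33.1% passed there, in the same order. In both settings with 2, the member added was Ppargc1a, for which this is a description. The block changed no other call, and the cause of these changes was not tested. The number of members higher in MIGA2-GFP than in MIGA2-KO (3) became 5 with GC and length offsets, with and without the block.

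Leaving out 1 library gave 6 to 7 members passing in WT over time, 4 to 7 in MIGA2-KO, 0 to 2 at day 0 and 0 to 1 in MIGA2-GFP against WT. Of all genes 58.2% to 71.2%, 36.3% to 50%, 22.5% to 38.6% and 22.2% to 43.7% passed, in the same order. Leaving out 1 library left 5 to 6 members higher in MIGA2-KO than in WT at day 6, 2 to 4 higher in MIGA2-GFP than in MIGA2-KO, and 5 with a larger change over time in MIGA2-KO. Log2 fold changes that changed sign were all uncalled with the 15 libraries and the main settings. Over leave-outs, Nrf1 ran from -0.13 to 0.0369 in MIGA2-KO over time and from -0.0492 to 0.11 at day 0, Pprc1 from -0.0921 to 0.0850 and Ucp2 from -0.18 to 0.0408 at day 0. In MIGA2-GFP against WT, Ppargc1b ran from -0.13 to 0.19, Pprc1 from -0.0703 to 0.0594, Esrra from -0.28 to 0.21 and Tfam from -0.0523 to 0.0824. Exon length offsets turned Nrf1 to 0.10 in WT over time (0.11 with the block), 0.13 in MIGA2-KO over time (0.13), -0.25 at day 0 (-0.25) and -0.0335 in MIGA2-GFP (-0.0379), and Pprc1 in MIGA2-GFP to -0.11 (-0.11). GC and length offsets gave Nrf1 0.11 (0.12), 0.10 (0.10) and -0.24 (-0.24) in the first 3 comparisons and -0.0047 in MIGA2-GFP with the block, Pprc1 -0.13 (-0.13) and Esrra 0.0263 (0.0252) in MIGA2-GFP. At day 0 Pprc1 was 0.0132 with DESeq2 and 0.0143 with RLE, and Ucp2 0.0402 without the 3 libraries. Without them Nrf1 was 0.0672 in MIGA2-KO over time, and limma-voom gave Pprc1 -0.0291 in MIGA2-GFP. Ppargc1a in MIGA2-KO against WT at day 6 was 2.29 with GC and length offsets and 3.24 without the 3 libraries. In MIGA2-GFP against WT it was 1.01 without the 3 libraries and 0.94 with limma-voom. Depth limits Ppargc1a in WT day 6 (11 to 24 counts per library) and in MIGA2-GFP (23 to 29). It also limits Ppargc1b at day 0, and Ucp1 and Prdm16 throughout.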
